A study of Homo sapiens with 15 samples.

Results

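The genes of the cytosolic ribosome were followed in UKE-1 cells, a human haematopoietic cell line, after TNF-α and after 2 drugs that were given alone or together. The members were the protein-coding genes named as ribosomal proteins of the small subunit (RPS) or large subunit (RPL, with the stalk genes RPLP0, RPLP1 and RPLP2) that had a mean of at least 10 counts per library. Of 84 genes with such a name, 81 met that count, 32 of the small and 49 of the large subunit, out of 58735 genes in the table. Just outside the limit, RPL3L had a mean of 9.53 counts, and just inside it RPS10 had a mean of 42.0 counts. The paralogues RPL10L and RPL39L had 0 counts in each of the 15 libraries, which allows a level of up to 0.194 CPM in the smallest library (3 counts of its total, for counting error only).

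The 15 libraries made 5 groups of 3. Cells received TNF-α followed by MCL and ruxolitinib together, TNF-α followed by MCL, TNF-α followed by ruxolitinib, TNF-α alone, or no treatment, and RNA was labelled as taken 3 h after treatment. The series title names micheliolide, a plant sesquiterpene lactone, and MCL is read as its short form, and ruxolitinib inhibits the kinases JAK1 and JAK2. The labels used here give no doses, no length of the TNF-α treatment and no word on whether libraries with one label are independent cultures. The p-values therefore rest on library-to-library spread, which may be technical only. Every group is the same line, and every drug group carries TNF-α. The labels call the line wild-type, a word that was not checked here against the sequence of any gene, JAK2 included.

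Ribosomal proteins are the protein part of the ribosome, of which each particle needs close to equal numbers, and they are among the most abundant messengers of dividing cells. Most of their messengers begin with a cytosine followed by a run of pyrimidines, the terminal oligopyrimidine (TOP) motif, through which the kinase complex mTORC1 and the RNA-binding protein LARP1 set their translation. In blood cells, shortage of single ribosomal proteins is known to cause Diamond-Blackfan anaemia, and free RPL5 and RPL11 bind MDM2 and stabilise p53.

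The start of these genes shows that motif in the letters. RefSeq windows of the assembly GRCh38.p14 were matched to 66 of the 81 members by symbol and gave 82 windows, since some genes have several starts. Members with no matched window include RPL5, RPL7, RPL8, RPL23, RPL23A, RPL30, RPL37, RPS2, RPS15A and RPS20. The 8 windows below run 5′ to 3′ on the transcribed strand, with 60 bases before the annotated start and 25 bases from it on. They show members described below that hold the letters CTTTC (RPL28, RPL35, RPS12, RPS14), one that rose with each drug and lacks them (RPL13A), one whose messenger lies mostly on exons of a second gene (RPL36A), and the paralogues that followed the other members least (RPL7L1, RPS27L). Capitals mark CTTTC between 10 bases before and 20 bases after the start.
RPL28: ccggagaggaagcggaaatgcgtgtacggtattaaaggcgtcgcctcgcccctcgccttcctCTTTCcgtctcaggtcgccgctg
RPL35: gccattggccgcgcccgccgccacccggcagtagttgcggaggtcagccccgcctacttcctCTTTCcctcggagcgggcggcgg
RPS12: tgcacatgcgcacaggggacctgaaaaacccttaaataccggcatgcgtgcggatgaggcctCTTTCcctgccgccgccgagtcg
RPS14: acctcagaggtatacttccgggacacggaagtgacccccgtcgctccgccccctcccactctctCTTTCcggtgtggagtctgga
RPL13A: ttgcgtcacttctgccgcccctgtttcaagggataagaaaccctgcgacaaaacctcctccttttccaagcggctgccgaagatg
RPL36A: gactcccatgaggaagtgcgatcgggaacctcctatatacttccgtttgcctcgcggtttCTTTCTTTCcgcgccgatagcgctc
RPL7L1: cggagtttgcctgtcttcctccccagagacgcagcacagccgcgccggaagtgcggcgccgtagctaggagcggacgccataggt
RPS27L: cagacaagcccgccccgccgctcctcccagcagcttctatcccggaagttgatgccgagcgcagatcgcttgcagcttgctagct
The windows lie at chr19:55385872-55385956 (plus strand), chr9:124861933-124862017 (minus strand), chr6:132814509-132814593 (plus strand), chr5:150449715-150449799 (minus strand), chr19:49487548-49487632 (plus strand), chrX:101390951-101391035 (plus strand), chr6:42879556-42879640 (plus strand) and chr15:63157453-63157537 (minus strand).

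CTTTC was found on the transcribed strand near 33 of the 82 member starts (40.2%), against 1497 of the 35116 RefSeq starts (4.26%). On the opposite strand of the same interval it was found at 2.44% of member starts and 3.17% of all starts. The annotated first base was C at 63.4% of member starts and 14.7% of all starts, and a run of at least 5 pyrimidines began there at 57.3% of member starts and 5.17% of all starts. Among the 8 printed genes, RPL35 opens with a run of 11 pyrimidines and RPL13A with 7, whereas RPL7L1 and RPS27L open with G and have no such run. The 8 were picked by what is described below, so they do not show how the run goes with the pattern of a gene. RPL21 and RPL11 also followed the other members little (correlation with their mean level 0.09 and 0.15). Both hold CTTTC near a start, with runs of 6 and 8 there. The letters of 2 other motifs were searched on both strands of the whole window, from 250 bases before to 50 bases after the start. CCGGAAG, a core that ETS factors can bind, was in 34.1% of member windows and 10.3% of all windows, and ATGGCGG, a core that YY1 can bind, was in 18.3% and 5.55%. TATAAA, looked for on the transcribed strand from 40 to 20 bases before the start, was in 3.66% of member windows and 2.25% of all windows. These are matches of letters to annotated starts, which may differ from the starts used in these cells.

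Library totals ranged from 15476399 to 18035604 counts, and all 81 members had counts in every library. Of the 58735 genes, 16146 passed the filter on low counts and were tested, and all 81 members were among them. Levels are given as CPM, counts scaled to a common library size with TMM factors. A gene is said to be called when edgeR's quasi-likelihood test gave a Benjamini-Hochberg adjusted p under 0.05 over all tested genes. Members had a median of 12223.5 counts and a median standard error of 0.0365 for the log2 fold change of MCL against TNF-α, while all tested genes had medians of 299 counts and 0.0967, so that small changes could be called in members. The 8 haematopoietic markers examined, among them PTPRC and CD34, had group means between 18.5 and 1287 CPM. Of 6 markers of other cell types, COL1A1, COL1A2, EPCAM, ALB and KRT5 stayed at or below 0.222 CPM and the endothelial gene CDH5 had group means between 167 and 257 CPM.

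The ribosomal protein genes held 6.43% ± 0.131 of all counts in cells given both drugs, 6.69% ± 0.129 with MCL, 6.67% ± 0.128 with ruxolitinib, 6.36% ± 0.0656 with TNF-α alone and 6.41% ± 0.0907 in untreated cells (SD, n = 3 each). Per library, the shares were 6.33%, 6.38% and 6.58% with both drugs, 6.73%, 6.80% and 6.55% with MCL, 6.62%, 6.82% and 6.58% with ruxolitinib, 6.40%, 6.28% and 6.39% with TNF-α, and 6.32%, 6.50% and 6.42% in untreated cells. Each library with a single drug lay above each library with TNF-α alone, and the libraries with both drugs spread across the gap between them. An exact two-sided permutation test gave p = 0.1 for MCL against TNF-α, for ruxolitinib against TNF-α and for both drugs against ruxolitinib, the smallest value that 3 against 3 libraries allow, and 0.2 to 1 for the other 4 comparisons of groups. In bulk RNA a smaller number of cells of a type and less RNA per cell cannot be told apart, and a share of counts gives no amount per cell.

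**Figure D1:**
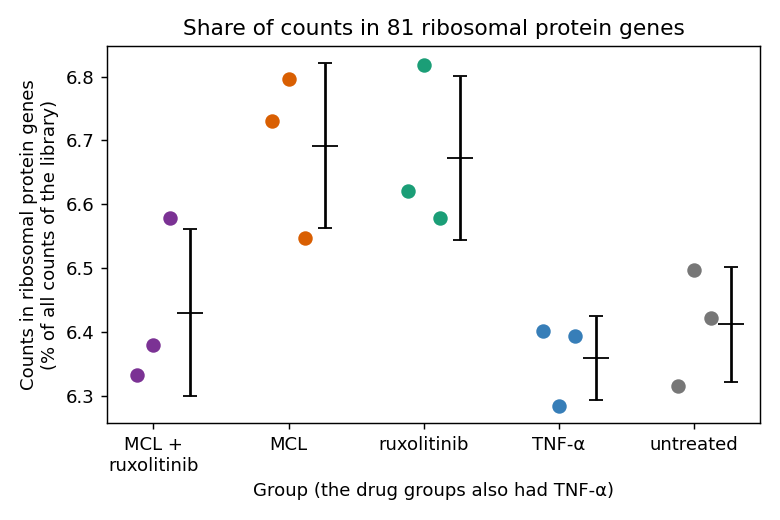
Share of all counts that fell in the 81 ribosomal protein genes, in percent of the library total (vertical axis, not from 0), for the 5 groups; points are libraries, and bars beside them are the mean and SD of 3 libraries. The MCL libraries (6.55% to 6.80%) and the ruxolitinib libraries (6.58% to 6.82%) lie above the TNF-α libraries (6.28% to 6.40%).

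Levels differed far more between genes than between groups. Per kilobase of annotated exons in untreated cells, RPS12 was highest at 1241 ± 43.2 CPM per kb, followed by RPS2 at 1034 ± 11.5, RPL8 at 848 ± 36.4, RPL13A at 829 ± 22.3 and RPL41 at 797 ± 17.1 CPM per kb (SD, n = 3). The values of RPL8 and RPL13A, and those of RPL13A and RPL41, lay within their spread. The length counts every annotated exon. The principal messenger makes up 82.3% of it in RPS12, 40.8% in RPS2, 48.2% in RPL8, 49.9% in RPL13A and 64.2% in RPL41. The order therefore depends on the annotation and may differ per kilobase of messenger. The median member had 219 CPM per kb. Among the lowest were RPL17 with 8.44 ± 0.396, the paralogue RPS27L with 5.99 ± 0.0575, RPL36A with 3.45 ± 0.148 and RPS10 with 1.28 ± 0.444 CPM per kb. RPS10, RPL36A and RPL17 encode core proteins of every ribosome, and their low values go with the annotation described next.

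RPS10, RPL36A and RPL17 are among the 4 members for which over 50% of the principal messenger lies on exons that another annotated gene also claims on the same strand. The overlap covers 88.0% of the RPS10 messenger (shared with the read-through gene RPS10-NUDT3), 77.6% of RPL36A (RPL36A-HNRNPH2) and 68.6% of RPL17 (RPL17-C18orf32). Lower shares were found for RPL26 with 38.7%, RPL36 with 28.0% and RPL18 with 26.4%. The genes that overlap the RPS10, RPL36A and RPL17 messengers on the same strand had means of 0 to 0.133 counts. The sources used here do not state how reads on exons of 2 genes were counted, so the values of RPS10, RPL36A and RPL17 are uncertain. On hg38, per the table, RPS10 spans chr6:34417454-34426125 on the minus strand. RPL36A spans chrX:101390824-101396154 on the plus strand, and RPL17 spans chr18:49488453-49492523 on the minus strand.

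Copies also surround these genes. Pseudogenes named after members number 1144, for 77 of the 81 members, and 513 of them had counts. They held 0.193% to 0.220% of a library, against 6.28% to 6.82% for the members. For RPS10 the pseudogenes held 505% of the count of the gene itself. Within the annotated spans of 28 members lie 60 small nucleolar RNA genes. Exons of 30 members overlap a gene on the other strand, over at most 57.8% of the principal messenger, in RPL38. The sources used here do not state whether counting used strand.

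Between TNF-α alone and untreated cells, 1 ribosomal protein gene was called. It was RPL7L1, a paralogue of RPL7 that is found in precursors of the large subunit, where 26.6% of all tested genes were called (14.1% higher, 12.5% lower). It had 234, 222 and 234 CPM with TNF-α, against 239.8, 240.3 and 258 CPM in untreated cells. The groups did not overlap, and the log2 fold change was -0.10 ± 0.04 (SE, edgeR adjusted p = 0.0426). Without untreated replicate 3 (-0.07) or without TNF-α replicate 2 (-0.08) it was no longer called and no member was, and without untreated replicate 2, 7 members were called. The other 80 members had log2 fold changes between -0.10 and 0.32, with a median over all members of 0.02 (all tested genes 0.00). The widest was RPS15A, a small-subunit protein, at 0.32 ± 0.11 (adjusted p = 0.052).

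MCL and ruxolitinib, each against TNF-α, left most members uncalled and a small set called higher by 0.09 to 0.17 on the log2 scale. With MCL 8 members were called higher and 2 lower, 12.3% of members against 26.0% of all tested genes (10.9% higher, 15.1% lower). Among those higher were RPS12, RPL28, RPS20, RPL13A, RPL31, RPL7 and RPL13, and RPL26 was among those lower. With ruxolitinib 6 were called higher and 3 lower, 11.1% against 15.7% of all tested genes (5.15% higher, 10.6% lower). RPL28, RPL13A, RPS20, RPS12, RPL13 and RPL7 were higher, and RPS10, RPL26 and RPL7L1 were lower. With the counts of its pseudogenes added, the change of RPS10 with ruxolitinib turned to 0.11 and was not called. The 6 members higher with ruxolitinib are all among the 8 higher with MCL, and both comparisons use the same TNF-α libraries. The medians were 0.04 with MCL and 0.03 with ruxolitinib, where all tested genes had -0.02 and -0.01.

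RPL13A, a large-subunit protein that leaves the ribosome during the interferon response to silence translation of some inflammatory messengers, rose with each drug. It had 2179, 2192 and 2181 CPM with MCL and 2225, 2379 and 2147 CPM with ruxolitinib, against 2051, 1936 and 2046 CPM with TNF-α. All libraries of either drug lay above all TNF-α libraries. The log2 fold change was 0.12 ± 0.03 with MCL (adjusted p = 0.00276) and 0.16 ± 0.03 with ruxolitinib (adjusted p = 8.03e-05). RPS12, the member with the highest level per kilobase of annotated exons, had 1054, 1129 and 974 CPM with MCL and 1032, 1069.5 and 991 CPM with ruxolitinib, against 959, 956 and 936 CPM with TNF-α. All libraries of either drug lay above all TNF-α libraries here too. The changes were 0.15 ± 0.04 (adjusted p = 0.00187) and 0.12 ± 0.04 (adjusted p = 0.0209). RPL28, a large-subunit protein, had 878, 878 and 845 CPM with MCL and 879, 958 and 827 CPM with ruxolitinib, against 805, 764 and 801 CPM with TNF-α. The single-drug libraries were again the higher ones. Its changes were 0.13 ± 0.04 (adjusted p = 0.0169) and 0.17 ± 0.04 (adjusted p = 0.00495).

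Some of these calls needed all libraries. RPL28 with MCL was not called without TNF-α replicate 2 (0.12), MCL replicate 1 (0.13) or MCL replicate 2 (0.13). RPS12 with ruxolitinib was not called without TNF-α replicate 3 (0.11), ruxolitinib replicate 1 (0.12) or ruxolitinib replicate 2 (0.11). RPL7 lost its call with MCL (without TNF-α replicate 2, 0.09, or MCL replicate 2, 0.08) and with ruxolitinib (without TNF-α replicate 2, 0.08, or ruxolitinib replicate 1, 0.10, or with pseudogene counts added, 0.07). Of those called lower, RPL26 with MCL was not called without MCL replicate 3 (-0.07) or TNF-α replicate 1 (-0.12), with library totals (-0.14), in DESeq2 (-0.17), in a fit of only the groups compared (-0.16) or with pseudogene counts added (-0.13). RPL26 with ruxolitinib was not called without TNF-α replicate 1 (-0.16) or ruxolitinib replicate 2 (-0.18), and RPS10 was not called without any one of 5 of the 6 libraries (-0.75 to -0.67) or without the low-count filter (-0.72). In number of members, the call with MCL fell to 4 higher and 2 lower without TNF-α replicate 2, and with ruxolitinib it came to 17 higher and 2 lower without ruxolitinib replicate 3. With library totals in place of TMM factors the split was 28 higher and 0 lower with MCL, and 18 higher and 3 lower with ruxolitinib. The shares of all tested genes called in these alternatives are not given here, so the counts show only how the member calls moved.

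For 37 of the 81 members a departure from additive drug effects was called, as set out below, and for 44 it was not. In cells given both, 42 of 81 members were lower than with MCL alone and 0 were higher, 51.9% called lower against 22.0% of all tested genes. Of all tested genes 41.6% were called there and 19.6% were called higher. Against ruxolitinib alone, 45 members were lower (55.6%, against 26.8% of all tested genes) and RPL7L1 was the one called higher, where 51.7% of all tested genes were called and 24.8% were higher. The median log2 fold change was -0.11 in each comparison, with the quartiles of the members at -0.15 and -0.07 against MCL and at -0.14 and -0.07 against ruxolitinib, where the medians of all tested genes were -0.01 and -0.02. Both subunits took part: 14 of 32 small-subunit and 28 of 49 large-subunit members were lower against MCL, and 17 of 32 and 28 of 49 against ruxolitinib. A total of 38 members were lower in both comparisons, which share the libraries with both drugs. The share of all tested genes lower in both was not computed, so the 38 cannot be set against it. The libraries did not overlap for 36 members lower against MCL (25.3% of all tested genes were so) and 39 lower against ruxolitinib (29.0% of all tested genes).

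**Figure D2:**
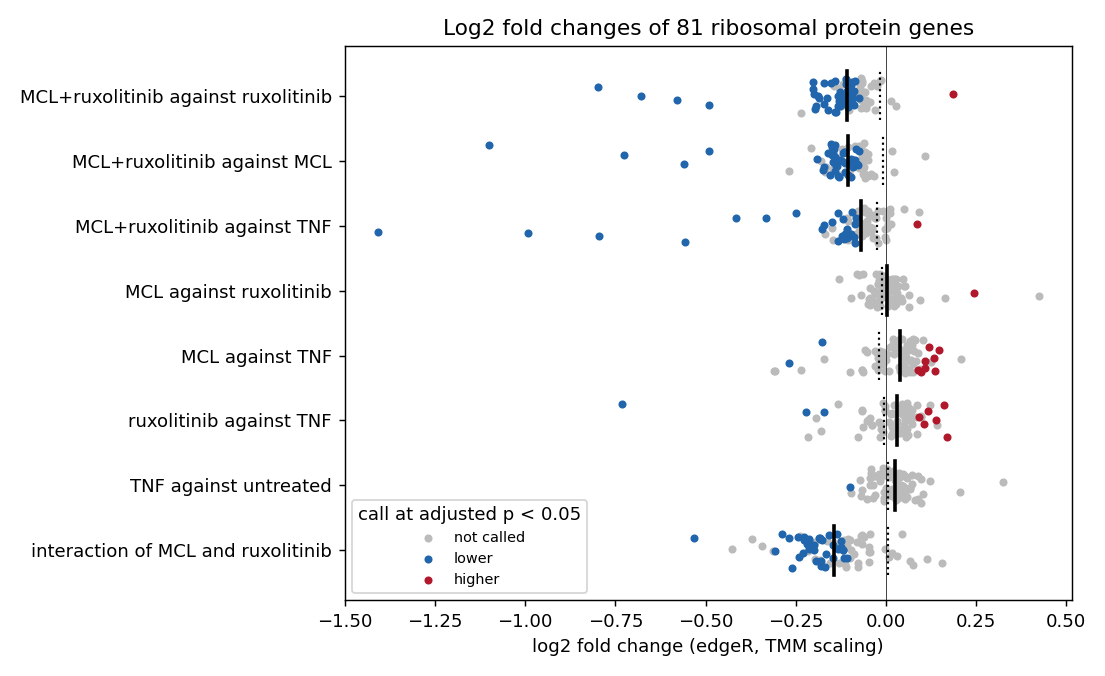
Log2 fold changes of the 81 ribosomal protein genes (horizontal axis) in the 7 comparisons of groups and for the non-additive effect of the drugs (rows); each point is a gene, coloured by its call, solid bars are the medians of the members and dotted bars those of all tested genes. Against a single drug, both drugs together shift the members to a median of -0.11, and RPS10, RPL36A and RPL17 are among the points far to the left.

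RPL8, a large-subunit protein near the catalytic centre and among the 5 members with the highest level per kilobase of annotated exons, had 1674, 1741 and 1799 CPM with both drugs, against 1933, 1967 and 1971 CPM with MCL and 1998, 2099.8 and 1901 CPM with ruxolitinib. All libraries with both drugs were the lower ones. Its log2 fold change was -0.17 ± 0.04 against MCL (adjusted p = 0.000103) and -0.20 ± 0.04 against ruxolitinib (adjusted p = 5.50e-06). RPS14, a small-subunit protein whose loss on one chromosome causes the anaemia of a myelodysplastic syndrome, had 781, 808 and 891 CPM with both drugs, 899, 933 and 908 CPM with MCL and 936, 967 and 889.9 CPM with ruxolitinib. Its highest library with both drugs overlapped the ruxolitinib group only. The changes were -0.14 ± 0.04 (adjusted p = 0.00183) and -0.17 ± 0.04 (adjusted p = 0.000185). RPL28, which each drug alone had raised, had 761, 799 and 803 CPM with both drugs, which is below every library with a single drug and overlaps the 764 to 805 CPM of TNF-α alone. Against MCL its change was -0.14 ± 0.04 (adjusted p = 0.00824) and against ruxolitinib -0.17 ± 0.04 (adjusted p = 0.000986). RPL28 was named for its high values in the single-drug libraries. Its fall from those libraries and its non-additive effect are therefore not independent of that choice. These calls of RPL28 were not followed through the alternatives. RPL35, a large-subunit protein at the exit of the nascent chain that was chosen after its values were seen, had 713, 727 and 799 CPM with both drugs, 848, 847 and 860.0 CPM with MCL, and 844, 893 and 842 CPM with ruxolitinib. The groups did not overlap, and the changes were -0.19 ± 0.05 (adjusted p = 0.00696) and -0.20 ± 0.05 (adjusted p = 0.00336).

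These counts moved with single libraries. Against MCL they fell to 26 members, all lower, without MCL replicate 2 or without replicate 1 of the combination. Against ruxolitinib they fell to 22 lower and 1 higher without ruxolitinib replicate 2. With library totals in place of TMM factors, 26 were lower and 1 higher against MCL, and 23 lower and 1 higher against ruxolitinib. Libraries of one group also differed in the members as a whole. The mean standardised level over the members was -1.40, -1.07 and -0.27 in the 3 libraries with both drugs, 0.56, 1.03 and -0.11 with MCL, 0.25, 0.99 and 0.22 with ruxolitinib, 0.24, -0.13 and 0.23 with TNF-α, and -0.44, 0.01 and -0.13 in untreated cells. Replicate 3 of the combination and replicate 3 of MCL therefore lay nearer to each other than their group means did. In pairs of libraries of one group, chi-square per gene was 7.23 to 35.5 for members and 2.02 to 4.06 over all genes compared. What moves the members together between libraries of one group was not tested.

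**Figure D3:**
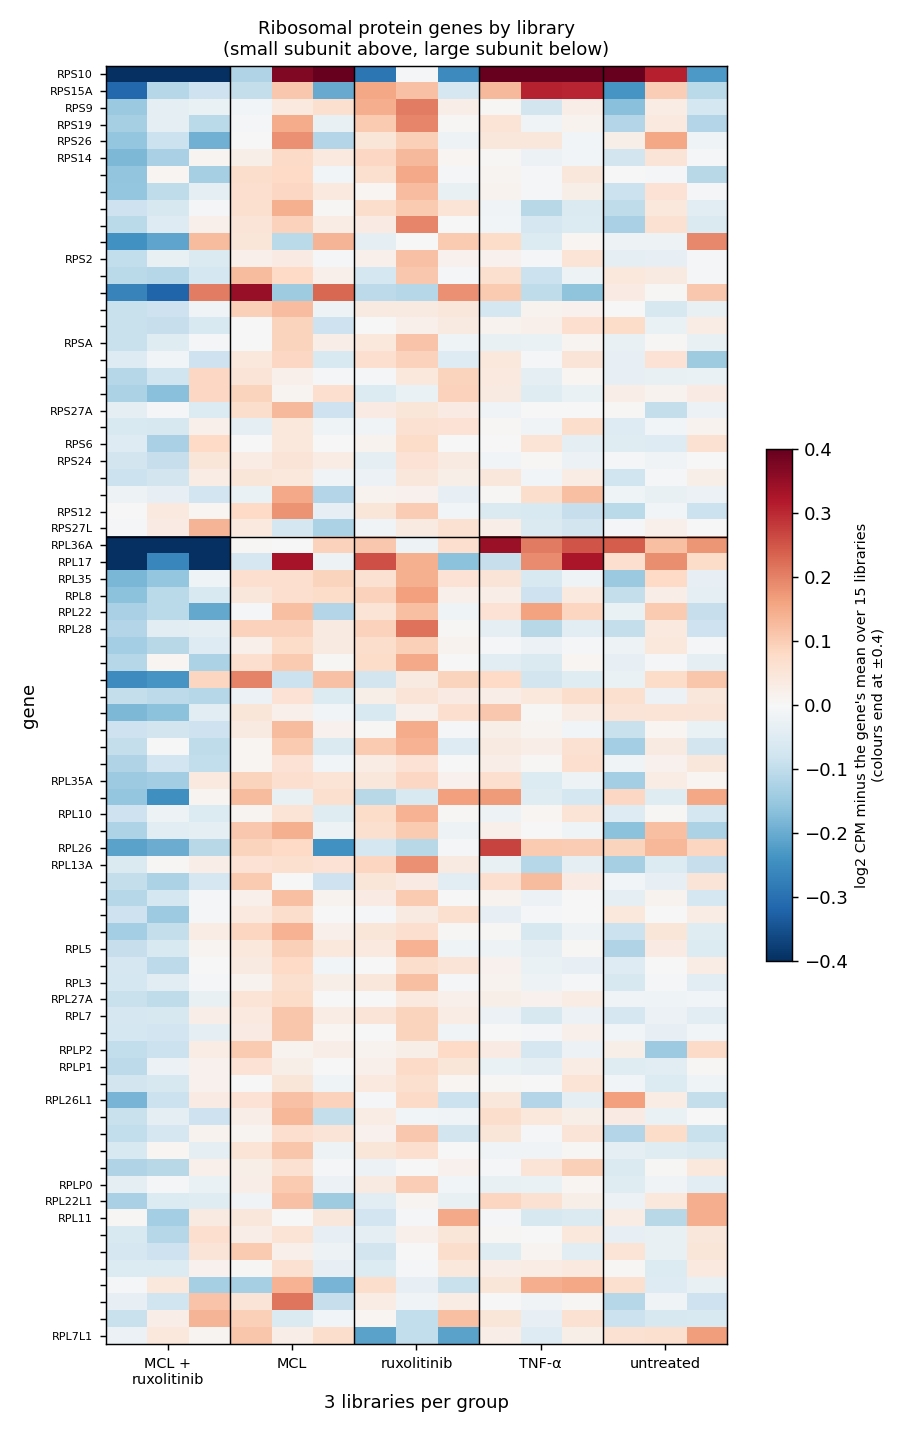
Level of each of 76 ribosomal protein genes (rows, some of them labelled; small subunit above, large subunit below) in the 15 libraries (columns), as log2 CPM minus the mean of that gene over all libraries, with colours ending at ±0.4. The libraries with both drugs are mostly blue, replicate 3 less so, and RPL7L1 at the foot is lowest in the ruxolitinib libraries.

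The non-additive effect is the log2 change that MCL gave on top of ruxolitinib, minus the log2 change that it gave without ruxolitinib. It was called for 37 of 81 members, each of them negative, which is 45.7% of members against 12.8% of all tested genes called in that direction (12.2% were called positive). Its median was -0.14 over the members and 0.01 over all tested genes. The median standard error was 0.0516 for members and 0.137 for all tested genes, so that smaller effects could be called in members. Against TNF-α, 54 members had a fold change above 0 with MCL, and on top of ruxolitinib 78 were below 0. All tested genes had a median of -0.02 in both comparisons. TNF-α against untreated cells, with 1 member called, also had 54 members above 0. Members moved together between libraries, so such counts are not independent votes. The number with a called non-additive effect was 27 (26 negative, 1 positive) to 43 when any one library was left out. It was 35 with library totals (34 negative, 1 positive). Of the named members, RPL28 had -0.31 ± 0.06 (adjusted p = 0.000227), RPL8 -0.27 ± 0.05 (adjusted p = 5.25e-05), RPL13A -0.23 ± 0.04 (adjusted p = 4.52e-05) and RPS14 -0.23 ± 0.05 (adjusted p = 0.00105). RPL13A shows the pattern in its means of 2082.5 ± 63.4 CPM with both drugs, 2184 ± 6.95 with MCL, 2250.2 ± 118 with ruxolitinib and 2011 ± 64.7 with TNF-α (SD, n = 3 each).

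**Figure D4:**
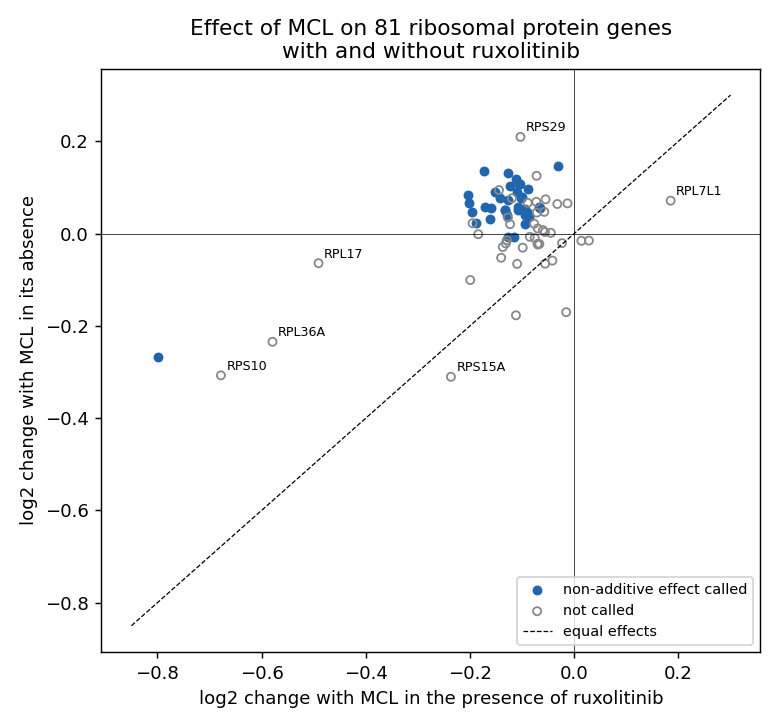
Log2 change with MCL in the presence of ruxolitinib (horizontal axis) against that in its absence (vertical axis) for the 81 ribosomal protein genes; filled points are the 37 with a called non-additive effect, and the dashed line marks equal effects. Most points lie left of the vertical zero line and above the dashed line, RPS10 and RPL36A are among those far to the lower left, and RPL17 is far to the left.

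Against TNF-α alone, cells given both drugs had 25 members called lower and 1 higher. The share called lower was 30.9%, near the 29.3% of all tested genes. Of all tested genes 25.5% were called higher and 54.8% in either direction. The median of the members was -0.07, against -0.03 over all tested genes. The direction of this comparison depended on scaling: with library totals 7 members were higher and 10 lower, with a median of 0.01 (all tested genes 0.05). Without replicate 1 of the combination 16 were lower and 0 higher. RPS12 was the single member called higher. It had 999, 1024 and 1004 CPM with both drugs, against 959, 956 and 936 CPM with TNF-α. The groups did not overlap, and the change of 0.09 ± 0.04 (adjusted p = 0.0418) was not called when any one of the 6 libraries compared was left out (0.08 to 0.10).

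Members whose messengers are mostly shared with another annotated gene fell by more than most others. RPL36A had 8.34, 7.64 and 9.13 CPM with both drugs, against 15.3, 13.9 and 14.3 CPM with TNF-α, a log2 fold change of -0.79 ± 0.11 (adjusted p = 4.05e-09). RPL17 had 14.5, 16.1 and 13.1 CPM with both drugs, against 18.1, 22.0 and 24.2 CPM with TNF-α, a change of -0.56 ± 0.12 (adjusted p = 0.000134). RPS10 had 1.45, 1.53 and 0.946 CPM with both drugs, against 3.62, 3.36 and 3.48 CPM with TNF-α, a change of -1.41 ± 0.26 (adjusted p = 4.46e-06). In each of these genes the groups did not overlap. When the counts of its pseudogenes were added, the change of RPS10 turned to 0.20 and was not called. Whether the fall concerns the whole messengers or only their unshared parts was not tested. Without the 4 members of this kind, 38 of 77 were lower against MCL, 41 of 77 against ruxolitinib, 21 of 77 against TNF-α, and 36 of 77 had a negative non-additive effect.

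RPS15A, RPL26 and RPL22, with 9.9%, 38.7% and 11.1% of the messenger in shared exons, also fell against TNF-α. RPS15A had 82.6, 94.9 and 96.9 CPM with both drugs, against 112, 127 and 127 CPM with TNF-α and 87.1, 110.0 and 95.3 CPM in untreated cells, so that the TNF-α libraries were the high ones. The change against TNF-α was -0.42 ± 0.11 (adjusted p = 0.00742). RPL22, a large-subunit protein with a role in lymphoid development, had 158, 161 and 151 CPM with both drugs, against 181, 194 and 184 CPM with TNF-α, a change of -0.25 ± 0.05 (adjusted p = 0.000421). RPL26, which binds the p53 messenger, had 50.2, 50.7 and 53.9 CPM with both drugs, against 70.3, 62.6 and 62.5 CPM with TNF-α, a change of -0.33 ± 0.06 (adjusted p = 8.58e-06). In RPS15A, RPL22 and RPL26 the libraries with both drugs lay below the TNF-α libraries. Over all comparisons of groups, 6 members reached a log2 fold change of 0.3 in either direction, RPS10 alone reached 1, and 28 members were called in none. The same counts were not made over all tested genes, so these have no background to be set against.

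**Figure D5:**
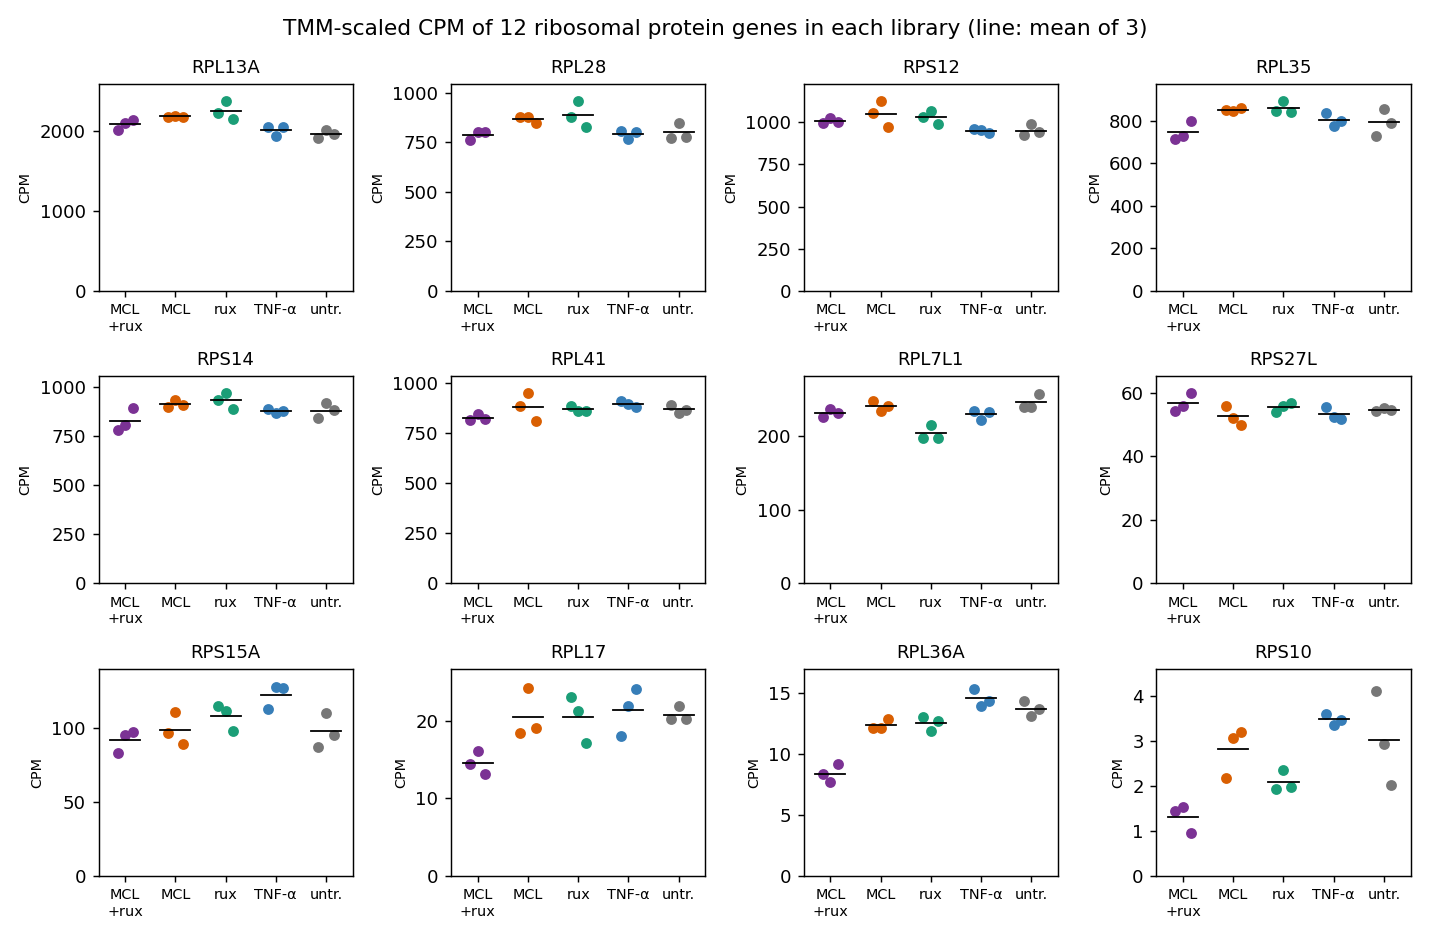
CPM of 12 ribosomal protein genes in each library (vertical axes from 0; points are libraries, lines are means of 3), by group. RPL17, RPL36A and RPS10 are lowest with both drugs, RPL7L1 is lowest with ruxolitinib, and the abundant members differ by little beside their level.

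Of the paralogues, RPL7L1 had an order of groups of its own. It was lowest with ruxolitinib alone, at 198, 215 and 198 CPM, against 234, 222 and 234 CPM with TNF-α, a change of -0.17 ± 0.04 (adjusted p = 0.000479). With both drugs it had 226, 237 and 232 CPM, which is 0.19 ± 0.04 above ruxolitinib alone (adjusted p = 3.06e-05), and with MCL it had 249, 234 and 241 CPM, 0.24 ± 0.04 above ruxolitinib (adjusted p = 3.93e-07). The groups did not overlap in any of these comparisons. RPL7L1 was the only member called between MCL and ruxolitinib, where 27.5% of all tested genes were called (14.3% higher, 13.1% lower) and the members had a median of 0.00. Without MCL replicate 2 or ruxolitinib replicate 3, 3 members were called there (1 higher, 2 lower), and without MCL replicate 3 or ruxolitinib replicate 2, 2 members (both higher). The counts of RPL7L1 were 16.2% ± 0.691 of those of RPL7 with both drugs, 15.8% ± 0.896 with MCL, 13.3% ± 0.380 with ruxolitinib, 16.0% ± 0.233 with TNF-α and 17.3% ± 0.746 in untreated cells (SD, n = 3 each).

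RPS27L, the paralogue of RPS27 that is known as a target of p53, had 54.3, 55.7 and 59.9 CPM with both drugs, against 55.5, 52.3 and 51.8 CPM with TNF-α. The groups overlapped and the change of 0.09 ± 0.06 was not called (adjusted p = 0.156). Its counts were 12.8% ± 0.650 of those of RPS27 with both drugs, 10.9% ± 0.567 with MCL, 11.9% ± 0.404 with ruxolitinib, 11.5% ± 0.159 with TNF-α and 11.5% ± 0.183 in untreated cells (SD, n = 3 each). RPL22L1, which can replace RPL22, was called lower with both drugs against TNF-α at -0.13 ± 0.05 (adjusted p = 0.0146), with 97.7, 103 and 104 CPM with both drugs against 113, 112 and 109 CPM with TNF-α. This call was lost without TNF-α replicate 1 (-0.12), TNF-α replicate 2 (-0.13) or replicate 1 of the combination (-0.10). It was also lost with library totals (-0.06, adjusted p = 0.302), without the low-count filter (-0.11, adjusted p = 0.0504) and in DESeq2 (-0.11, adjusted p = 0.0795). Its counts were 64.8% ± 3.60 of those of RPL22 with both drugs, 61.2% ± 0.450 with MCL, 58.7% ± 2.18 with ruxolitinib, 59.8% ± 2.75 with TNF-α and 64.5% ± 7.24 in untreated cells (SD, n = 3 each), so that the share with both drugs lay within the range of untreated cells. RPL26L1 was called in none of the comparisons, with group means between 28.3 and 31.8 CPM.

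Role by role, the stalk, which recruits the elongation factors, gave few calls. RPLP0 had group means of 2126 ± 23.4 CPM with both drugs, 2218 ± 99.6 with MCL, 2224 ± 84.4 with ruxolitinib and 2136 ± 31.6 with TNF-α, and it was called in no comparison of groups. RPLP1 was called lower with both drugs against ruxolitinib alone (-0.09 ± 0.03, adjusted p = 0.0158), a call lost without ruxolitinib replicate 2 (-0.06) or replicate 1 of the combination (-0.05), with library totals (-0.03, adjusted p = 0.337) and without the low-count filter (-0.08, adjusted p = 0.0511). RPLP2 was not called. Of the MDM2-binding pair, RPL5 had 894, 915 and 960.3 CPM with both drugs, against 982, 1018 and 982 CPM with MCL, a change of -0.11 ± 0.04 (adjusted p = 0.0124) that was not called without MCL replicate 2 (-0.09) or without replicate 1 (-0.08) or replicate 2 (-0.10) of the combination, or with library totals (-0.06, adjusted p = 0.104). Against ruxolitinib RPL5 was also called lower with both drugs (-0.10). That call was lost with library totals (-0.05), without ruxolitinib replicate 2 (-0.05), or without replicate 1 (-0.08) or replicate 2 (-0.09) of the combination. RPL11 was called in no comparison, with 739, 776 and 866 CPM in the ruxolitinib libraries, a wider range than its group means of 757 to 797 CPM.

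Of 5 genes mutated or lost in anaemias of ribosomal origin, RPS14 is given above. RPS19, the gene most often mutated in Diamond-Blackfan anaemia, had 952, 1019.6 and 970.4 CPM with both drugs, against 1123, 1197 and 1048 CPM with ruxolitinib. The groups did not overlap, and the change was -0.20 ± 0.06 (adjusted p = 0.0159). The call was lost without ruxolitinib replicate 2 (-0.14) or without replicate 1 (-0.17) or replicate 3 (-0.19) of the combination. RPS26 had -0.18 ± 0.07 in the same comparison (adjusted p = 0.0372), a call lost without any one of 4 libraries (-0.18 to -0.15) or with library totals (-0.13). RPL35A had -0.15 ± 0.05 with both drugs against MCL (adjusted p = 0.0104), lost without replicate 1 (-0.12) or replicate 2 (-0.12) of the combination. It was also called lower against ruxolitinib (-0.13). That call was lost with library totals (-0.07), without ruxolitinib replicate 2 (-0.10), or without replicate 1 (-0.10) or replicate 2 (-0.10) of the combination. RPS24 was called in no comparison. RPS6, the protein that S6 kinase phosphorylates, was likewise called in none, with group means between 1201 and 1252 CPM. RPSA, which also serves as a laminin receptor precursor, had -0.09 ± 0.03 against each single drug (adjusted p = 0.0223 against MCL and 0.00921 against ruxolitinib), and RPL10, the last protein added to the large subunit, had -0.13 ± 0.03 against ruxolitinib (adjusted p = 0.000729). The RPSA call against MCL was lost without MCL replicate 2 (-0.06) or without replicate 1 (-0.06) or replicate 2 (-0.08) of the combination, and that against ruxolitinib without ruxolitinib replicate 2 (-0.05) or replicate 1 of the combination (-0.07). With library totals RPSA had -0.04 against each single drug and neither call was kept (adjusted p = 0.225 against MCL and 0.226 against ruxolitinib), and in DESeq2 the call against MCL was lost (-0.07, adjusted p = 0.0511). RPS27A, made as a fusion with ubiquitin, was not called.

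Members with and without the CTTTC letters were also set side by side. Of the 33 members with the letters near a start, 17 were lower with both drugs against MCL and 20 against ruxolitinib, with medians of -0.11 and -0.12. Of the 33 members with a window but without the letters, 14 and 15 were lower, with medians of -0.09 and -0.09. Of the 28 members with small nucleolar RNA genes within their span, 16 were lower against MCL and 17 against ruxolitinib. The difference between such sets was not tested.

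Other genes with TOP messengers gave mixed results. Of 24 tested in a list of 25 (among them elongation factors, subunits of an initiation factor, RACK1, FAU and host genes of small nucleolar RNAs), 8 were lower and 1 higher with both drugs against MCL (22.0% and 19.6% of all tested genes were), 6 lower and 5 higher against ruxolitinib (26.8% and 24.8% of all tested genes), and 6 had a negative and 1 a positive non-additive effect (12.8% and 12.2% of all tested genes). The counts against ruxolitinib are near those shares. Their medians were -0.06, -0.03 and -0.05. RACK1, a ribosome-bound scaffold, had -0.16 ± 0.03 against MCL (adjusted p = 2.73e-05) and -0.17 ± 0.03 against ruxolitinib (adjusted p = 4.68e-06). FAU, whose product is a ribosomal protein fused to a ubiquitin-like one, had -0.14 ± 0.04 against MCL (adjusted p = 0.00120). SNHG1, a non-coding host gene, had -0.47 ± 0.05 with both drugs against TNF-α (adjusted p = 1.87e-13), while GAS5, another host gene, was higher with both drugs than with ruxolitinib (0.21 ± 0.04, adjusted p = 5.42e-06).

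Genes that control or serve translation were described from 3 further lists. Of 16 tested genes of the mTORC1, LARP1 and S6 kinase axis, 11 were higher and 2 lower with MCL against TNF-α (10.9% and 15.1% of all tested genes were), 3 higher and 3 lower with ruxolitinib (5.15% and 10.6% of all tested genes), and 9 higher and 4 lower with both drugs (25.5% and 29.3% of all tested genes). The counts called lower are few and near or below those shares with MCL and with both drugs. PDCD4, an inhibitor of the helicase eIF4A, had a log2 fold change of 1.22 ± 0.06 with both drugs against TNF-α (adjusted p = 4.70e-27). In the same comparison AKT1S1, which encodes the mTORC1 inhibitor PRAS40, had 0.76 ± 0.05 (adjusted p = 2.75e-22) and EEF2K, the kinase that restrains elongation factor 2, had -0.80 ± 0.05 (adjusted p = 3.09e-19). Of 31 translation initiation factors, 5 were higher and 15 lower with both drugs against TNF-α, where 25.5% and 29.3% of all tested genes were. With MCL 6 were higher and 3 lower against TNF-α, and with ruxolitinib 0 were higher and 10 lower, beside the shares of all tested genes just given. For MCL set against ruxolitinib directly, 11 had a higher and 1 a lower level (all tested genes 14.3% and 13.1%). With both drugs against TNF-α the called factors include EIF4A1 at -1.29 ± 0.11 (adjusted p = 4.84e-16), EIF3B at -0.41 ± 0.03 (adjusted p = 1.52e-16) and EIF5 at 0.64 ± 0.03 (adjusted p = 5.77e-26).

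Of 20 tested genes for proteins that escort ribosomal proteins and assemble the subunits, 12 were lower and 0 higher with ruxolitinib against TNF-α (10.6% and 5.15% of all tested genes were), with a median of -0.22 (all tested genes -0.01). With MCL 3 were higher and 3 lower, near the 10.9% and 15.1% of all tested genes. With both drugs 11 were lower and 5 higher, where 29.3% and 25.5% of all tested genes were. BYSL, needed to build the small subunit, had -0.48 ± 0.06 with ruxolitinib (adjusted p = 2.25e-09) and -0.80 ± 0.06 with both drugs (adjusted p = 3.88e-18). HEATR3, an importer of RPL5, had -0.92 ± 0.08 with both drugs (adjusted p = 7.01e-16) and LTV1, a factor of the small subunit, had -0.84 ± 0.08 (adjusted p = 8.29e-15). DNAJC21, which acts in recycling factors of the large subunit, was higher at 0.43 ± 0.05 (adjusted p = 8.05e-12).

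Among non-members, the genes whose log2 CPM over the 15 libraries was most like the mean standardised level of the members were SEC61B (Pearson r = 0.91), AIF1 (0.90), UQCRH (0.90), PRMT1 (0.89) and CYC1 (0.89). These correlations are a description, since libraries, depth and scaling are shared, and no p is given. Within the members, the correlation with that mean ran from 0.94 for RPL27A down to -0.10 for RPS27L and -0.16 for RPL7L1.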

How the data were processed

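RNA-seq of total RNA was deposited by the authors as 1 table of raw counts per gene for 15 libraries, with gene coordinates and lengths. HISAT2 2.0.5, featureCounts 1.5.0-p3 and DESeq2 1.16.1, and the builds hg38 and mm10, are named per the submitters' processing notes. Settings for strand, multi-mapping reads and overlapping genes were not given in any source used here. Columns named Control were taken as the untreated libraries. No other column of per-sample values was left unused (0 columns).

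The deposited counts entered edgeR 4.0.16 (R 4.3.3, limma 3.58.1), through filterByExpr with a minimum count of 10, which removed 42589 of 58735 genes, TMM factors, 1 coefficient for each of the 5 groups over the 15 libraries (10 residual degrees of freedom), robust quasi-likelihood F-tests, with p adjusted by Benjamini and Hochberg over the 16146 genes tested. Standard errors were derived as the absolute log2 fold change over the root of F. CPM were scaled with the TMM factors. Shares of counts were compared with exact permutation tests. Libraries of one group differed beyond counting noise in all 15 pairs, and each was counted as a sample. Such differences do not show that the libraries are independent cultures. Some genes that the rules below would name are not reported here. Members, lists and named genes were chosen with earlier results of these data known. Named genes were the paralogues and their parents, the 3 highest and 3 lowest fold changes of each comparison, the 5 highest and 5 lowest levels, and genes of set roles. Overlaps came from the annotation of the build of the table, and sequences from RefSeq. Alternatives were other scalings, no filter, a replicate block, DESeq2 1.42.0, separate fits, added pseudogene counts and leaving out each library.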

Additional observations from a re-analysis of the deposited data

Results flagged for a closer look

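The effect of MCL differed with and without ruxolitinib, by a test of the difference itself, for 37 members, all of them in the negative direction. RPL28 and RPS9 were named only for extreme fold changes in comparisons of single drugs, which share libraries with this test. Their values here are therefore not independent of that choice. The log2 difference was -0.31 for RPL28, -0.27 for RPL8, -0.24 for RPS9, -0.23 for RPL13A, -0.23 for RPS14, -0.20 for RPL35A, -0.19 for RPL7, -0.18 for RPL5 and -0.18 for RPS12. It was -0.15 for RPSA, -0.13 for RPL3, -0.12 for each of RPLP0, RPLP1 and RPL10, and -0.11 for RPS2. The calls of RPL35A, RPLP0, RPLP1, RPL10 and RPS2 were lost when any one of 4 to 8 libraries was left out, and those of RPL10 (-0.0976) and RPS2 (-0.0880) also with library totals. The calls of RPL28 and RPS9 were not followed through the alternatives.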

How the results depend on the processing

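Over all tested genes, same-numbered libraries did not deviate together (r of -0.04 to 0.05 over 30 pairs). Those genes had a median of 299 counts, where counting noise lowers r, and r was not computed for the members alone. Whether the numbers pair the libraries is therefore not decided. With the replicate number as a block, 4 members were called for TNF-α against untreated cells, and the other counts stayed within 1.5 times. With library totals in place of TMM factors, the members called numbered 2 for TNF-α, 28 for MCL, 21 for ruxolitinib and 17 for both drugs against TNF-α, and 27 for both drugs against MCL and 24 against ruxolitinib. Without the filter they numbered 18 for MCL and 15 for ruxolitinib. Fits of only the groups compared gave 8 for TNF-α, 24 for MCL and 18 for ruxolitinib, and DESeq2 and added pseudogenes each gave 2 for TNF-α. When any one library was left out, the counts ran from 0 to 7 for TNF-α, 6 to 14 for MCL, 6 to 19 for ruxolitinib, 16 to 36 for both drugs against TNF-α, 26 to 52 against MCL and 23 to 55 against ruxolitinib, 1 to 3 for MCL against ruxolitinib and 27 to 43 for the non-additive effect. For all these alternatives, here and above, the shares of all tested genes called are not given beside the member counts. The cause was not tested.

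Of 75 calls of named members, 35 were kept in every alternative and 40 were lost in at least 1. With pseudogene counts added, RPS10 turned to -0.0928 for TNF-α, 0.0323 for MCL, 0.11 for ruxolitinib and 0.20 for both drugs against TNF-α, 0.17 against MCL, 0.0870 against ruxolitinib, -0.0788 for MCL against ruxolitinib and 0.0547 for the non-additive effect. When any one library was left out, values that were not called crossed 0, from -0.0176 to 0.47 for RPS10 with TNF-α, -0.0405 to 0.0719 for RPL21 and -0.0418 to 0.13 for RPL23A with both drugs against MCL, -0.0432 to 0.0687 for RPL21 and -0.0134 to 0.0573 for RPS27L against ruxolitinib, and -0.00030 to 0.16 for the non-additive effect of RPS15A. Genes with few counts, RPS10 above all, carry the widest errors.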

Other observations

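Mitochondrially encoded genes held 4.30% ± 0.143 of counts with both drugs, 4.55% ± 0.217 with MCL, 5.49% ± 0.0476 with ruxolitinib, 5.12% ± 0.151 with TNF-α and 5.23% ± 0.115 in untreated cells (SD, n = 3 each). With those counts taken out of the total, the ribosomal protein genes held 6.72% with both drugs, 7.01% with MCL, 7.06% with ruxolitinib, 6.70% with TNF-α and 6.77% in untreated cells.

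The heart and muscle paralogue RPL3L, just under the count limit, had 0.0227% ± 0.00353 of the count of RPL3 with both drugs, 0.0253% ± 0.00474 with MCL, 0.0177% ± 0.00915 with ruxolitinib, 0.0237% ± 0.00466 with TNF-α and 0.0356% ± 0.0112 in untreated cells (SD, n = 3 each). RPL26L1 had 54.9% ± 2.23 of the count of RPL26 with both drugs and 44.9% ± 1.59 with TNF-α, alongside the lower RPL26.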
